A study of Mus musculus with 6 samples.

Results

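The genes described here encode the ligands, receptors and binding proteins of the fibroblast growth factor (FGF), epidermal growth factor (EGF), insulin-like growth factor (IGF) and platelet-derived growth factor (PDGF) families. They were taken by gene symbol, and where a gene had several rows on the array the row of highest mean was kept. This gave 62 genes of 19938 with a row of their own: 28 of the FGF, 13 of the EGF, 14 of the IGF and 7 of the PDGF family. The name rule also took Fgfr1op2, the mRNA-binding proteins Igf2bp1 and Igf2bp3 and the antisense RNA Igf1os, which share a name with the families and are neither ligands nor receptors. RNA was measured in the whole hearts of 6 male FVB mice, each on its own Affymetrix Mouse Gene 1.0 ST array. All 6 mice had transverse aortic constriction (TAC), in which the aortic arch is narrowed surgically so that the left ventricle pumps against a higher pressure, at 8 weeks of age, and hearts were taken 14 weeks later. Of these, 3 were wild-type littermates, and 3 were A2a-R TG mice that over-express the adenosine A2a receptor in the heart from an inducible transgene. The labels do not name its promoter or the inducing agent, and hearts without TAC were not analysed here. Values are on the log2 scale after RMA, a method that corrects background, aligns the arrays' distributions and summarises the probes of a transcript. Differences are transgenic minus wild type, errors are SD over 3 hearts for a group and the moderated SE for a difference, and p-values are from limma, adjusted by the Benjamini-Hochberg method over all 21789 rows tested, with a threshold of 0.05.

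These families signal through receptor tyrosine kinases, which recruit adaptors and switch on the ERK and phosphoinositide 3-kinase pathways; IGF2R, which takes up IGF2, is an exception. In the heart, IGF1 is known for cardiomyocyte growth, neuregulin with ERBB2 and ERBB4 for cardiomyocyte survival, HB-EGF for growth signals released from the membrane by metalloproteinases during hypertrophy, and PDGF-B with PDGFRB for the recruitment of pericytes and smooth muscle to vessels. Several FGFs need heparan sulfate to bind their receptors, so enzymes and proteins of the extracellular matrix also set how far their signals reach.

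The heart label was borne out by 10 cardiomyocyte markers, whose mean log2 value was 13.42 to 13.47 in all 6 hearts. No row carried Adora2a, the receptor gene itself, as its single symbol, so the transgene was not checked here. Among the marker lists, macrophage and monocyte genes differed most: 13 of 14 were higher in transgenic hearts, while 53.4% of all genes lay lower. In this list 2 passed (Lgals3 at 0.61 ± 0.06 and Lyz1 at 0.53 ± 0.08, SE), against 0.547% of all genes passing as higher. The list's mean ran from 7.95 to 8.11 in the wild type against 8.33 to 8.40 in transgenic hearts. Other markers that passed were Acta2, smooth muscle actin, at 0.73 ± 0.09, Il7r, a lymphocyte receptor, at 0.57 ± 0.07, and Nppa, atrial natriuretic peptide, at -1.18 ± 0.21 (limma adjusted p = 0.0106, 0.00995 and 0.0456). Of these 5 markers, Lgals3 alone passed without each heart in turn; limma adjusted p reached 0.120 for Lyz1 (without wild-type replicate 2; lost in every such fit but that without wild-type replicate 1), 0.0594 for Acta2 (lost without wild-type replicate 1 or 3), 0.0500009 for Il7r (without wild-type replicate 3) and 0.124 for Nppa (lost without any 1 heart). The lists that hold Acta2, Il7r and Nppa were mixed in sign, with 53.4% of all genes lower. Of 11 smooth muscle and pericyte markers 7 lay higher and 4 lower. Of 8 lymphocyte markers 4 lay higher and 4 lower, and of 7 atrial markers 3 lay higher and 4 lower. In whole hearts, fewer cells of a type and less RNA per cell cannot be told apart.

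Across the 62 genes, 2 changed, and both fell in the transgenic hearts: Fgf6, a secreted FGF known from skeletal muscle, and Hbegf, the heparin-binding EGF-like ligand of EGFR and ERBB4. Over all genes 0.993% passed in limma in either direction with 0.446% lower and 0.547% higher. Of the 62, 9 had an unadjusted p below 0.05, against 14.6% of all genes, and in 8 the 3 transgenic hearts did not overlap the 3 wild-type hearts, against 20.2% of all genes. The median log2 difference was -0.02 over the 62 genes and -0.01 over all genes. With 36 members lower and 26 higher, against 53.4% of all genes lower, neither the median nor the balance of signs set the families apart from the array. For 59 members the 95% interval of the difference lay within a 1.5-fold change either way (96.8% of all genes); the other 3 were Fgf6, Hbegf and Pdgfrl. However, 23 of the 62 were dim, among the dimmest 40% of rows, where RMA compresses differences (8094 of all 19938 genes). For these 23 a narrow interval cannot show that the gene did not change. The plot of log2 differences with their intervals shows all members in 1 view.

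**Figure D1:**
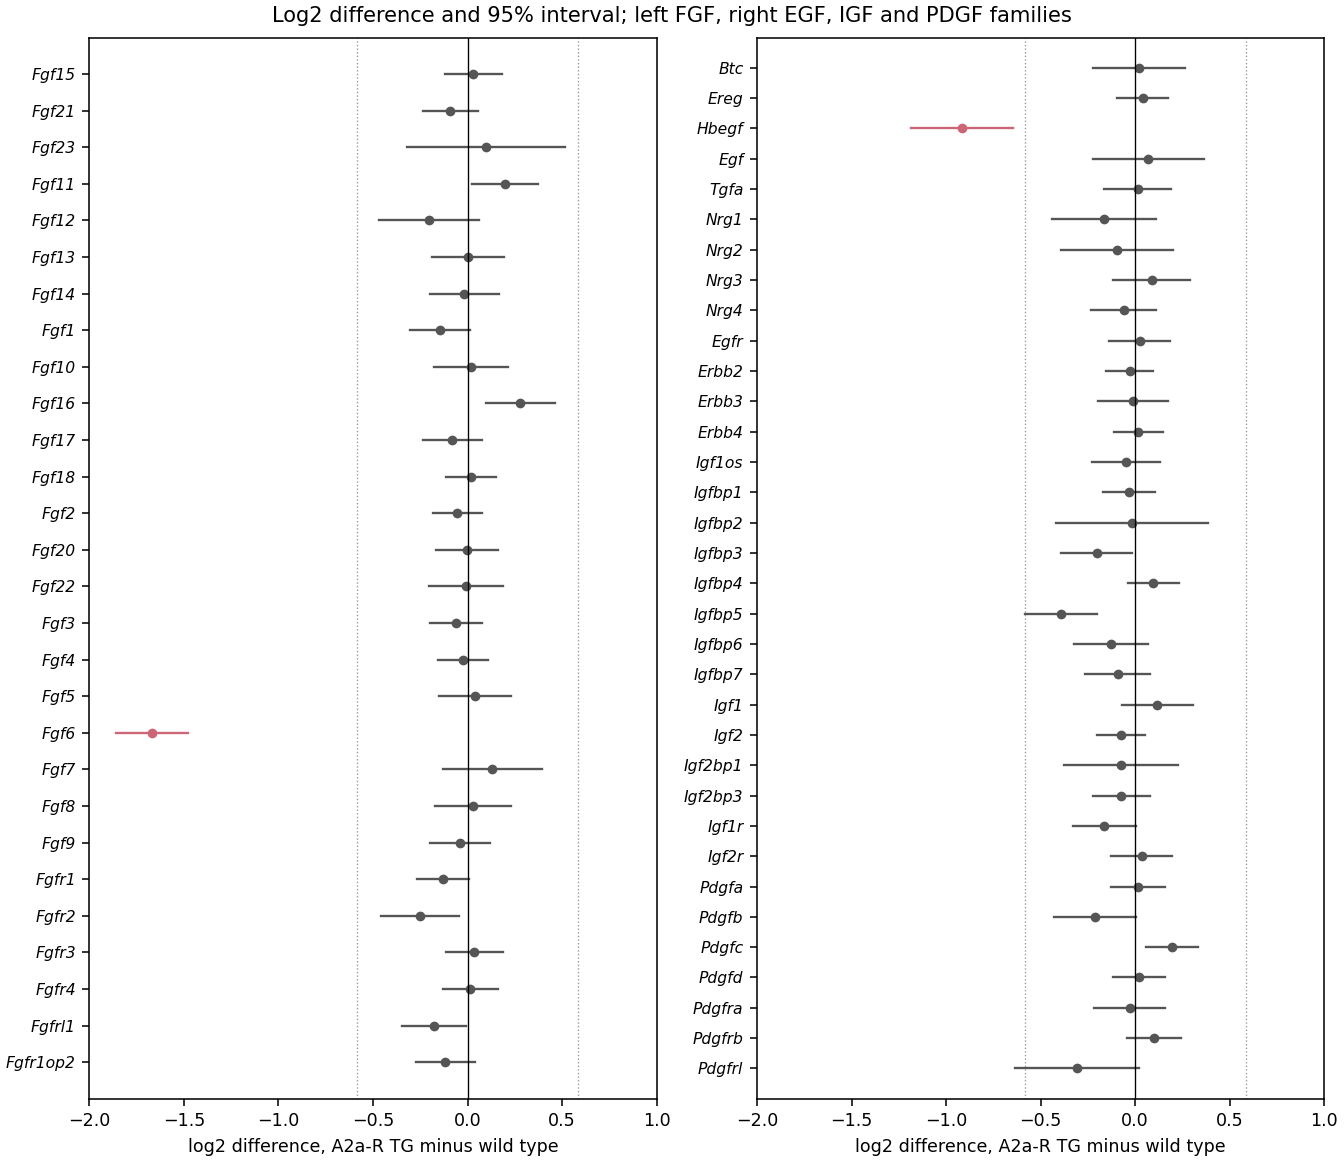
Log2 difference between A2a-R TG and wild-type TAC hearts (x axis) for each of the 62 genes (rows), with 95% intervals from limma (lines), FGF family on the left and EGF, IGF and PDGF families on the right; red marks an adjusted p below 0.05, and dotted lines mark a 1.5-fold change. Fgf6 at -1.67 and Hbegf at -0.92 stand outside the dotted lines, and the lower end for Pdgfrl crosses one.

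Fgf6 belongs to the paracrine FGFs, which are secreted, bind heparan sulfate and act on nearby cells, and it is best known from skeletal muscle and its regeneration. Its log2 values were 8.51, 8.41 and 8.37 in the wild-type hearts and 6.88, 6.60 and 6.80 in the transgenic hearts. The groups lay far apart, and the spread within each was small beside the gap. Fgf6 fell by 1.67 ± 0.08 (SE, 95% interval -1.86 to -1.48), which is 3.18-fold lower, with a limma adjusted p of 0.000568. Among all 19938 genes it had the smallest p-value (rank 1) and the fall of rank 2. The call held without any 1 heart, with adjusted p between 0.000524 and 0.00674. None of 15 skeletal muscle and myogenic markers, among them Myod1, Myog, Pax7 and Myh4, passed in limma. An unadjusted p below 0.05 was found for 1. The list's mean ran from 6.02 to 6.17 in the wild type against 6.04 to 6.17 in transgenic hearts. However, 12 of the 15 were among the dimmest 40% of rows, where RMA compresses differences. For that reason the list cannot show whether the amount of skeletal muscle differed, which was not tested.

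The start of Fgf6 is shown because it is the member with the greatest difference, and that of Igfbp5 because it had the next smallest p-value after Hbegf, whose start is not printed. Each sequence runs 5′ to 3′ from 250 bases before the annotated start to 30 bases from it (RefSeq, GRCm38.p6; 46 of the 62 members had an entry), at chr6:127015292-127015571 on the plus strand for Fgf6 and chr1:72874836-72875115 on the minus strand for Igfbp5. Capitals mark matches to any of 6 motifs searched on both strands.
Fgf6: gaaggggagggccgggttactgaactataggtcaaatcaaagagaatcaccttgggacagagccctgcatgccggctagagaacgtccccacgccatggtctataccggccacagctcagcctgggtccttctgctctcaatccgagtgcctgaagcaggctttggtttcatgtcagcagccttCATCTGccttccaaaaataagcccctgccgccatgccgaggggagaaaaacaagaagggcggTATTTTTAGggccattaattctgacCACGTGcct
Igfbp5: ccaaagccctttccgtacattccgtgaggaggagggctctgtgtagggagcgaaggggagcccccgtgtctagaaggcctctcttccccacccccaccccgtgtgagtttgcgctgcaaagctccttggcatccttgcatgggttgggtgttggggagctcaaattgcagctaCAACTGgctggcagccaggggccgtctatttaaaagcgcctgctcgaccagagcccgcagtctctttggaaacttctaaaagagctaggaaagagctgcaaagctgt
The motifs were the cAMP response element TGACGTCA, its short form TGACG, which the full element contains, the MEF2-type CTAAAAATA, the E-box CANNTG, the AP-1 motif TGANTCA and the CArG box. Fgf6 held 1 MEF2-type match, TATTTTTAG, which begins at position -4 and runs across the start, and 2 E-boxes, CATCTG from position -66 and CACGTG from position 22, counting the start as 1. MEF2 factors and E-box-binding factors are regulators of muscle genes. Igfbp5 held 1 E-box, CAACTG from position -77. Of 32851 windows of the same length, 0.493% held the MEF2-type letters and 70.1% an E-box. Neither window held the full cAMP response element (1.74% of windows), its short form (19.9%), the AP-1 motif (7.46%) or a CArG box (1.56%). A match of letters says nothing of whether a factor binds there.

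The other 14 paracrine FGFs did not pass in limma, and 1 of them, Fgf16, had an unadjusted p below 0.05. Fgf16, a ligand made by cardiomyocytes, had log2 values of 9.0, 9.23 and 9.22 in wild-type and 9.36, 9.51 and 9.42 in transgenic hearts. Every transgenic heart stood above every wild-type heart, but the difference of 0.28 ± 0.08 (SE, 95% interval 0.10 to 0.46) had a limma adjusted p of 0.168. Fgf1, acidic FGF, was at 8.24, 8.20 and 8.31 in wild-type and at 8.21, 8.01 and 8.09 in transgenic hearts, so that the groups overlapped (-0.15 ± 0.07, adjusted p = 0.376). For Fgf2, basic FGF and a mitogen of fibroblasts and endothelium, the values were 8.70, 8.68 and 8.62 against 8.66, 8.60 and 8.58. Its difference of -0.05 had a 95% interval of -0.18 to 0.08.

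Endocrine FGFs circulate and act through klotho coreceptors, while the intracellular FGFs, also called FGF homologous factors, are not secreted and bind voltage-gated sodium channels. Fgf21, a metabolic hormone of this endocrine group, stood at 5.97, 6.02 and 6.0 in wild-type and 5.84, 6.0 and 5.88 in transgenic hearts (-0.09 ± 0.06, SE). Fgf23, the phosphate hormone linked to ventricular hypertrophy, varied within both groups, from 6.26, 5.77 and 6.03 to 6.40, 5.72 and 6.23, and had the widest interval of the FGF family, -0.32 to 0.52. Neither passed, and in both genes the groups overlapped. Both, like Fgf12 below, were dim rows, where RMA compresses differences, so small differences cannot show that they were unchanged. Fgf13, an intracellular factor that regulates cardiac sodium channels, was at 8.90, 8.73 and 8.63 in wild-type and 8.71, 8.85 and 8.71 in transgenic hearts, with a 95% interval for the difference of -0.19 to 0.19. Fgf11 was at 7.46, 7.37 and 7.38 against 7.45, 7.68 and 7.67, with 2 transgenic hearts above all wild-type hearts and the third among them (0.20 ± 0.08, adjusted p = 0.288). Fgf12, another of these factors, was at 5.81, 5.68 and 6.09 against 5.77, 5.50 and 5.70, a difference of -0.20 within overlapping groups (adjusted p = 0.464) that was -0.09 without wild-type replicate 3.

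None of the 4 FGF receptors passed in limma, and 1, Fgfr2, had an unadjusted p below 0.05. Fgfr1, the FGF receptor best known from cardiomyocytes, was at 9.50, 9.37 and 9.39 in wild-type and at 9.31, 9.28 and 9.28 in transgenic hearts. The transgenic hearts all lay below the wild-type hearts, by a mean of -0.13 ± 0.06 (SE), with a limma adjusted p of 0.358. Fgfr2, the receptor of several epithelial FGFs, was at 5.52, 5.59 and 5.77 against 5.52, 5.30 and 5.30 (-0.25 ± 0.09, adjusted p = 0.251). Fgfrl1, a receptor-like protein that lacks the kinase domain, was at 8.97, 8.92 and 8.83 against 8.84, 8.63 and 8.72 (-0.18 ± 0.07, adjusted p = 0.313). In Fgfr2 and Fgfrl1 the highest transgenic heart reached into the wild-type range. Fgfr2 was a dim row, where RMA compresses differences. Fgfr1op2, which shares only the name, was at 9.24, 9.28 and 9.07 against 9.06, 9.09 and 9.09. The remaining 15 genes of the FGF family lay between -0.08 (Fgf17) and 0.13 (Fgf7), 7 of them lower and 8 higher, and 9 of the 15 were among the dimmest 40% of rows, where RMA compresses differences.

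**Figure D2:**
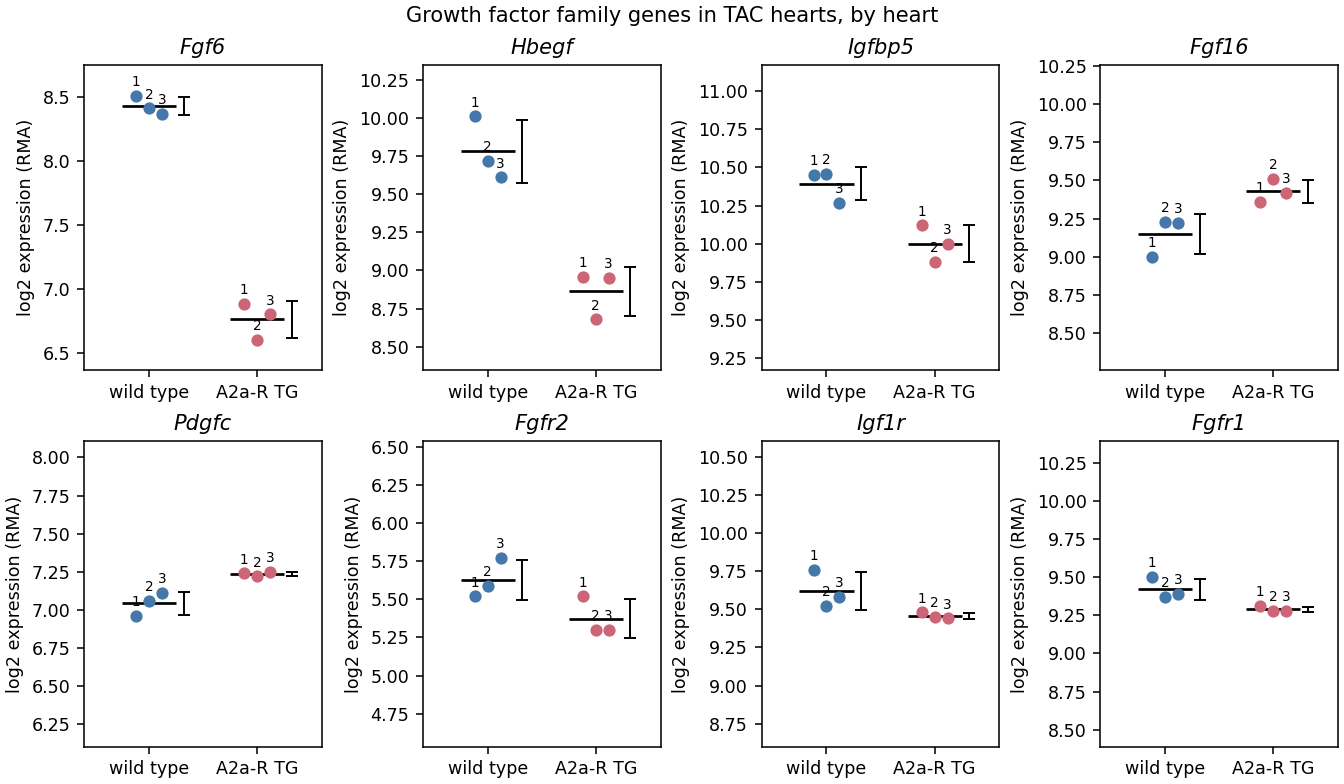
RMA log2 expression (y axis, each panel spanning at least 2 log2 units) of 8 genes in the 3 wild-type and 3 A2a-R TG hearts; points are hearts numbered by replicate, horizontal lines are group means and bars are SD (n = 3). Fgf6 and Hbegf are separated by wide gaps, while the gaps for Igfbp5, Fgf16, Pdgfc, Igf1r and Fgfr1 are narrow and Fgfr2 overlaps.

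Within the EGF family a single gene changed. Hbegf encodes a membrane-anchored growth factor that is shed by ADAM proteases and then activates EGFR and ERBB4. Its values were 10.01, 9.72 and 9.61 in the wild-type hearts and 8.96, 8.68 and 8.95 in the transgenic hearts. All transgenic hearts stood below all wild-type hearts, and wild-type replicate 1 was the highest. Hbegf fell by 0.92 ± 0.12 (SE, 95% interval -1.19 to -0.65), which is 1.89-fold lower, with a limma adjusted p of 0.0125. Without wild-type replicate 2 the call was lost (adjusted p = 0.0594, difference -0.95); it held without each of the other 5 hearts. Cells other than cardiomyocytes also make Hbegf. For 10 endothelial markers the list mean ran from 10.40 to 10.46 in the wild type against 10.32 to 10.43 in transgenic hearts. None passed in limma (1 unadjusted p below 0.05). Of the 10, 8 lay lower (53.4% of all genes), with a median of -0.07, and in 3 all transgenic hearts were lower (12.4% of all genes). The macrophage markers were higher, as given above. The part of either cell type in the result was not tested.

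The receptors that HB-EGF and the neuregulins bind did not pass in limma, nor did they at an unadjusted p below 0.05. Egfr was at 7.45, 7.36 and 7.26 in wild-type and 7.33, 7.35 and 7.46 in transgenic hearts. Erbb2, the coreceptor that binds no ligand of its own, was at 7.96, 8.04 and 8.00 against 7.97, 7.96 and 7.98, and Erbb4, the neuregulin receptor of cardiomyocytes, was at 8.48, 8.44 and 8.54 against 8.49, 8.48 and 8.54. The groups overlapped in each of these receptors, with 95% intervals of -0.14 to 0.18 for Egfr, -0.15 to 0.09 for Erbb2 and -0.11 to 0.15 for Erbb4. Nrg1, the neuregulin that endothelial cells send to cardiomyocytes, was at 6.13, 5.73 and 5.65 in wild-type and 5.74, 5.61 and 5.67 in transgenic hearts; replicate 1 of the wild type alone stood apart (-0.16 ± 0.12, limma adjusted p = 0.586). The other 8 genes of the family, which include the EGFR ligands Egf, Tgfa, Btc and Ereg, lay between -0.10 (Nrg2) and 0.09 (Nrg3). Of these 8, 4 were dim rows, as was Nrg1, where RMA compresses differences.

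In the IGF family none of 14 genes passed in limma, and 2 had an unadjusted p below 0.05, against 14.6% of all genes. Of the 14, 11 lay lower, against 53.4% of all genes. The 11 include Igf1os, Igf2bp1 and Igf2bp3, which are neither ligands, receptors nor binding proteins of IGFs. IGF binding proteins carry IGFs and limit or prolong their action, and 6 of the 7 measured lay lower, with a median of -0.09. Igfbp5, which binds IGFs in the matrix, was at 10.45, 10.46 and 10.27 in wild-type and 10.12, 9.88 and 10.0 in transgenic hearts. The groups did not overlap, and the difference of -0.39 ± 0.08 (SE, 95% interval -0.58 to -0.20) had an adjusted p of 0.0845. It passed when the dimmest 40% of rows were left out (0.0327) and with a trended and robust variance prior (0.0155). It did not pass with the replicate number as a block (0.143), with all rows of the table tested (0.106) or with any 1 heart left out (0.0858 to 0.253). Igfbp3, the main carrier in blood, was at 8.54, 8.27 and 8.36 against 8.10, 8.22 and 8.24, again without overlap (-0.20 ± 0.08, adjusted p = 0.303). Igfbp4, an inhibitor of IGF action, was the member of this group that lay higher, at 9.64, 9.66 and 9.76 against 9.78, 9.82 and 9.75 (0.10 ± 0.06).

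The IGF ligands and receptors did not pass either. Igf1, the growth factor of the growth hormone axis, was at 8.02, 7.80 and 7.77 in wild-type and 8.04, 8.01 and 7.89 in transgenic hearts (0.12 ± 0.08, SE, limma adjusted p = 0.569). Igf2, a fetal growth factor, was at 8.08, 8.10 and 8.12 against 8.00, 8.08 and 7.99 (-0.08 ± 0.06, adjusted p = 0.583). In both ligands the groups overlapped. Igf1r, the kinase receptor of both ligands, was at 9.76, 9.52 and 9.58 in wild-type and 9.48, 9.45 and 9.44 in transgenic hearts. Here the transgenic hearts all lay below the wild-type hearts, by a mean of -0.16 ± 0.07, and wild-type replicate 1 was the highest (adjusted p = 0.348). The other 8 genes lay between -0.13 (Igfbp6) and 0.03 (Igf2r), 7 lower and 1 higher. Of these 8, 5 were dim rows, where RMA compresses differences. Igf2bp1 was the member with more than 1 row, at -0.07 in the row used and 0.03 in its second row.

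None of the 7 PDGF family genes passed in limma, and 1 had an unadjusted p below 0.05. That gene was Pdgfc, a ligand of PDGFRA that is activated by proteolysis, at 6.96, 7.06 and 7.11 in wild-type and 7.24, 7.22 and 7.25 in transgenic hearts. The transgenic hearts were all higher and close together, but the difference of 0.19 ± 0.06 (SE, 95% interval 0.05 to 0.33) had an adjusted p of 0.202. Pdgfb, the endothelial ligand that attracts pericytes, was at 9.49, 9.48 and 9.38 against 9.17, 9.10 and 9.45, with transgenic replicate 3 inside the wild-type range (-0.21 ± 0.09, adjusted p = 0.352). Pdgfa, a ligand for fibroblasts and their precursors, was at 9.25, 9.17 and 9.18 against 9.30, 9.16 and 9.19, and Pdgfd differed by 0.02.

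Pdgfra, the receptor of fibroblasts, was at 9.62, 9.33 and 9.45 in wild-type and 9.49, 9.38 and 9.44 in transgenic hearts (-0.03 ± 0.08, SE). Pdgfrb, the receptor of pericytes and smooth muscle, was at 10.62, 10.58 and 10.50 against 10.67, 10.72 and 10.61 (0.10 ± 0.06). Both overlapped between groups. Pdgfrl, a receptor-like protein without a kinase, was at 7.08, 6.54 and 6.62 against 6.55, 6.27 and 6.50, and had the widest interval of the family, -0.63 to 0.02. Its high mean in the wild type came with replicate 1.

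Wild-type replicate 1 was often the highest wild-type heart in these families. This was so for 33 of the 62 genes (53.2%), against 36.6% of all genes. The fibroblast markers stood highest in the same wild-type heart for 10 of 12 genes (83.3%), with a list mean of 10.06 there against 9.69 and 9.75 in the other wild-type hearts. Pdgfra is 1 of these 10 and is also among the 62 members, so this list partly repeats them. Pdgfrb, in the smooth muscle and pericyte list, is a member too. Wild-type replicate 1 was also the highest wild-type heart for 11 of 15 skeletal muscle markers (73.3%) and 4 of 6 fat markers (66.7%). However, 12 of the 15 and all 6 fat markers were dim rows, so neither list can show the amount of its tissue. The skeletal muscle mean was as high in transgenic replicate 1 as in wild-type replicate 1 (both 6.17). The share was below that of all genes for cardiomyocyte (20%), lymphocyte (25%), atrial (28.6%) and endothelial markers (30%). It was above it for macrophage (42.9%) and smooth muscle and pericyte markers (45.5%). The part of any of these cells in the members' values was not tested. The mean of the IGF members deviated from its 6-heart mean by 0.10 in wild-type replicate 1 and by -0.10 in transgenic replicate 2. That of the PDGF members deviated by 0.11 and -0.07. For the FGF members the deviations in these hearts were 0.07 and -0.09, and for all genes 0.01 and -0.02. For the EGF members the deviation was 0.03 in wild-type replicate 1 against 0.04 in each of the other wild-type hearts. It was -0.08 in transgenic replicate 2, and 5 of 13 stood highest in wild-type replicate 1. The FGF and EGF means include Fgf6 and Hbegf, which fell. Over all 62 members the deviations in wild-type replicate 1 and transgenic replicate 2 were 0.08 and -0.09. Without Fgf6 and Hbegf they were 0.05 and -0.06. The plot of family means by heart shows that the PDGF members of wild-type replicates 2 and 3 lay below those of transgenic replicates 1 and 3. Without wild-type replicate 1, Fgf6 and Hbegf were again the members that passed, and the median over the members was -0.01.

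**Figure D3:**
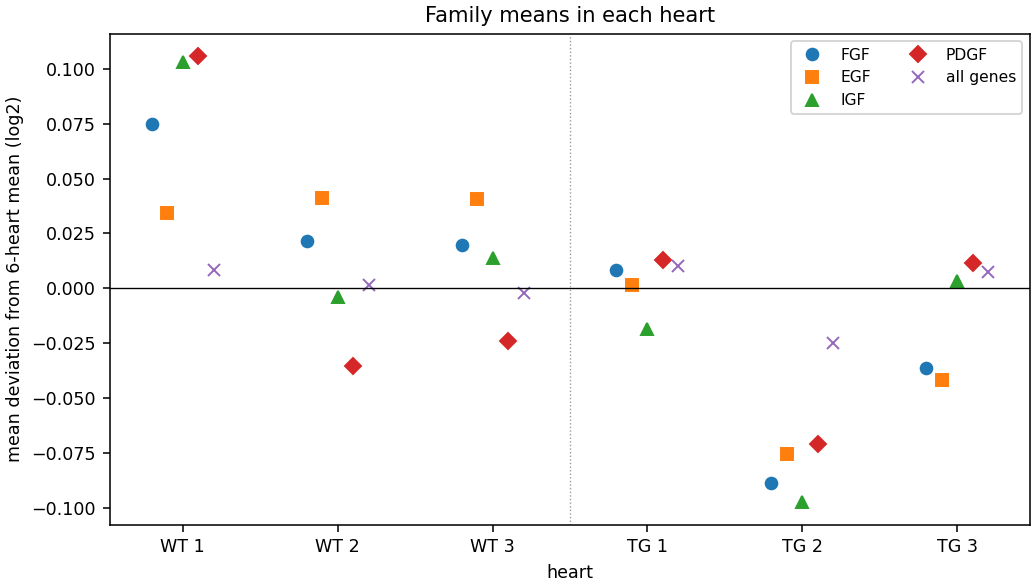
Mean deviation of each family's members from their mean over the 6 hearts (y axis, log2) in each heart (x axis; WT wild type, TG A2a-R TG), with all 19938 genes as crosses and no error bars. Wild-type replicate 1 is highest for the FGF, IGF and PDGF members and transgenic replicate 2 is lowest for all 4 families. The FGF and EGF means include Fgf6 and Hbegf, which fell.

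Partner genes of these pathways were described as 1 list, chosen by role: adaptors, coreceptors, proteases that release ligands, heparan sulfate enzymes and feedback inhibitors. Of 43 measured, 25 lay lower and 18 higher, against 53.4% of all genes lower, and the median was -0.05. In limma 1 fell and 1 rose, against 0.446% and 0.547% of all genes. An unadjusted p below 0.05 was found for 13, against 14.6% of all genes. The list was chosen with earlier results of these data known, so these counts were not tested. Sulf2, an enzyme that removes sulfate groups from heparan sulfate outside the cell and so alters FGF binding, was at 9.95, 9.80 and 9.84 in wild-type and 10.44, 10.49 and 10.37 in transgenic hearts. It rose by 0.57 ± 0.06 (SE), 1.48-fold, with a limma adjusted p of 0.00748, and the call held without any 1 heart (0.0219 to 0.0455). Spred1, an inhibitor of the RAS-ERK pathway downstream of these receptors, was at 8.42, 8.33 and 8.41 against 7.95, 8.06 and 8.02. It fell by 0.38 ± 0.06, 1.30-fold, with an adjusted p of 0.0304, and the call was lost without any 1 heart (0.0647 to 0.110) and with the replicate block (0.106).

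Among the 6 partners of smallest p-value, the 4 that did not pass lay lower in every transgenic heart than in any wild-type heart. Spred1 did too, while Sulf2 lay higher in every transgenic heart. The 6 were picked by p-value, so this separation adds nothing to their p-values. Spred2, a relative of Spred1, was at 9.39, 9.46 and 9.35 against 8.96, 9.13 and 8.99 (-0.37 ± 0.07, SE, limma adjusted p = 0.0505). Spry4, a sprouty inhibitor whose transcript is itself raised by FGF and EGF signals, was at 8.55, 8.64 and 8.52 against 7.96, 7.85 and 8.31. Its difference of -0.53 ± 0.11 had an adjusted p of 0.0864, and 0.0219 without transgenic replicate 3. Irs1, the docking protein of the insulin and IGF1 receptors, was at 8.89, 9.13 and 8.97 against 8.65, 8.70 and 8.66 (-0.33 ± 0.07, adjusted p = 0.0950). Grb10, an adaptor that restrains insulin and IGF1 receptors, was at 10.01, 9.89 and 9.87 against 9.55, 9.73 and 9.56 (-0.31 ± 0.07, adjusted p = 0.106). Each of these 4 passed when the dimmest 40% of rows were left out, with adjusted p of 0.0167, 0.0359, 0.0364 and 0.0438 in the order given. With the replicate number as a block none of the 4 passed, at 0.0837, 0.156, 0.143 and 0.187 in that order, and with 1 heart left out their adjusted p reached 0.188, 0.255, 0.237 and 0.271. Irs1 averaged over its rows was at 0.217. In 12 of the 43 partners the transgenic hearts were all lower and in 3 all higher, against 12.4% and 7.79% of all genes.

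**Figure D4:**
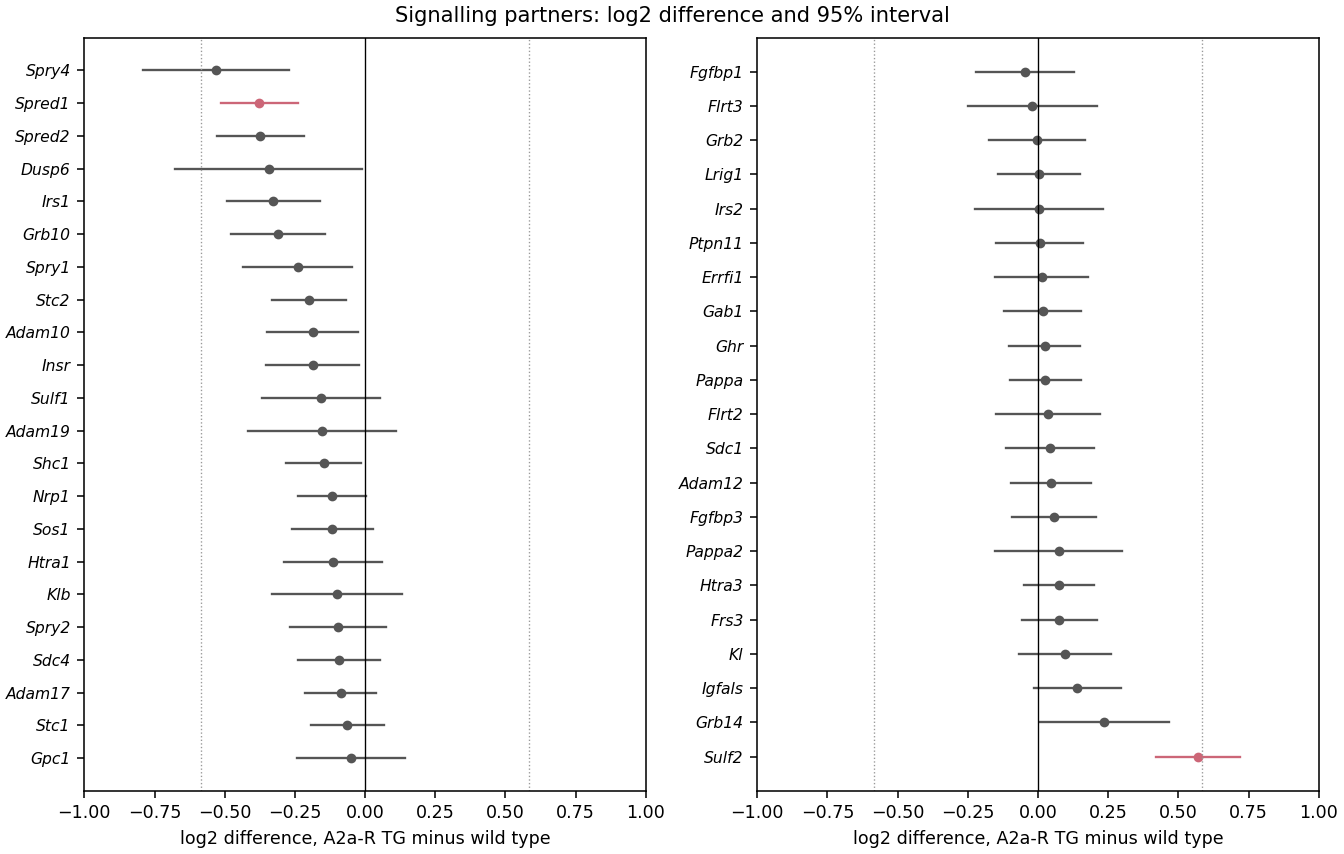
Log2 difference between A2a-R TG and wild-type TAC hearts (x axis) for the 43 partner genes, sorted from lowest to highest over both columns, with 95% intervals from limma; red marks an adjusted p below 0.05 and dotted lines a 1.5-fold change. Spred1 and Sulf2 are red, and Spry4, Spred2, Irs1 and Grb10 lie near Spred1 without passing.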

How the data were processed

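Hearts of 3 wild-type and 3 A2a-R TG mice were measured on 1 array each. RMA and Partek are named per the submitters' processing notes; the values deposited by the authors are log2, with versions, settings and a genome build not given in the sources used here. Depth does not apply to arrays; their number limits the precision. Rows were named from a platform annotation dated 2016: 21789 of 28853 rows carried exactly 1 symbol and were tested. Each was fitted with limma 3.58.1 in R 4.3.3 (lmFit, then eBayes with its default prior) without covariates and adjusted by Benjamini-Hochberg. The same code was tested on simulated data. The members and lists were chosen with earlier results of these data known, so no list was tested. Values by heart are given for the members that passed, the 16 others of smallest p and 12 more fixed by role, and for the 6 partners of smallest p; cell type markers that passed are given by their differences. Ccnd1 and Ccnd2 and the genes that end a range or lie next to a member are named outside that rule. Over all tested rows the deviations of hearts with equal replicate numbers were at most weakly correlated, which cannot decide whether they were paired. Alternatives were the replicate number as a block, further normalization, filters, priors, weights, thresholds, other rows and leaving out each heart.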

Additional observations from a re-analysis of the deposited data

How the results depend on the processing

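With 3 hearts a group the median SE over the members was 0.08 on the log2 scale, and dim rows are compressed by RMA. Of 15 alternatives, Fgf6 and Sulf2 passed in 15 and Hbegf in 14, and no sign of a called gene turned. The count of rows that changed, 209, was 97 with the replicate block, 493 without the dimmest 40% of rows, 579 with a trended and robust prior, 476 at an adjusted p below 0.10 and 84 to 147 with 1 heart left out, all in limma. The balance was 309 lower to 184 higher and 339 to 240 without the dimmest rows and with that prior, and 75 to 133 when all rows of the table were tested, against 96 to 113. The members that passed numbered 1 to 2 with 1 heart left out. The partners that passed numbered 1 with the replicate block, 6 without dim rows, 6 with the trended and robust prior, 4 with array weights, 5 at an adjusted p below 0.10 and 1 to 2 with 1 heart left out. The correlations of same-numbered hearts' deviations over all tested rows were 0.16, -0.01 and -0.10. Such correlations cannot decide whether the numbers mark a pairing, because single genes may still deviate together. The median over the members stayed between -0.06 and 0.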

Other observations

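No chromosomal neighbour of Fgf6 or Hbegf passed the test. Of the 5 measured genes on each side of Fgf6, 0 of 10 passed in limma, against 0.993% of all genes. An unadjusted p below 0.05 was found for 3 of the 10, against 14.6% of all genes, and differences ran from -0.40 to 0.11. The adjoining Fgf23 was at 0.10 ± 0.18 (SE), and the lowest of the 10 was the cyclin D2 gene Ccnd2 at -0.40 ± 0.10 (limma adjusted p = 0.123). Around Hbegf, 0 of 10 passed in limma (2 had an unadjusted p below 0.05) and the differences ran from -0.15 to 0.04. The clustered genes Fgf3, Fgf4 and Fgf15 lay at -0.06, -0.02 and 0.03, while Ccnd1, the cyclin D1 gene beside this cluster, fell by 0.36 ± 0.05 (limma adjusted p = 0.0243). Ccnd1 was the 1 gene of the 10 around Fgf4 that passed, and its call was not followed with hearts left out. The EGF-like genes Epgn, Ereg and Btc, which also lie side by side, were at -0.03, 0.04 and 0.02.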
